A study of Sus scrofa with 23 samples.

Results

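The genes described here encode 3 families of proteins that bind pre-mRNA and influence which exons are kept: the serine and arginine rich splicing factors (SRSF), the heterogeneous nuclear ribonucleoproteins (HNRNP) and the polypyrimidine tract binding proteins (PTBP). They were taken by symbol, as every gene named SRSF with a number, every gene whose symbol begins with HNRNP, and PTBP1, PTBP2 and PTBP3. This gave 34 of the 26687 gene symbols, namely 11 SRSF, 20 HNRNP and 3 PTBP genes, which together hold 249 of the 77689 transcript models. All 34 had at least 10 estimated counts in each of the 23 libraries, so none was lost to a filter on low counts. The set itself was chosen by the measured level of PTBP3, which had been seen to be higher in CF pigs, so the PTBP3 difference is given as a description with no test. The data are RNA-Seq of kidney cortex of newborn pigs, from total RNA without ribosomal RNA. The labels give 11 pigs as CF (CFTR-/-), 6 as HET (CFTR+/-) and 6 as WT (CFTR+/+). Non-CF stands for the 12 HET and WT pigs together. Each library is a different pig, and the labels name no treatment and state neither sex nor litter. The kidney cortex is a mixture of cells, so fewer cells of a type and less RNA per cell cannot be told apart.

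SR proteins bind enhancer sequences in exons and help to recruit the splicing machinery, whereas hnRNP proteins often, though not always, hold exons or splice sites out of use. The PTBP proteins bind stretches rich in pyrimidines and mostly repress the exons beside them. PTBP1 is found in most tissues, PTBP2 is best known from neurons, and PTBP3 was first described in blood forming cells. Many of these genes control their own amount, by making transcripts in which a stop codon lies ahead of a later exon junction and which are then degraded by nonsense-mediated decay.

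CFTR itself was read first, as a check of the labels. Libraries labelled WT held 1.27 to 3.67 CPM (counts brought to a common library size by the TMM method), with a median of 2.24. Those labelled HET held 9.40 to 17.5 (median 12.1) and those labelled CF 12.5 to 23.5 (median 20.7). The RNA was thus lowest in the WT libraries, with HET above WT by 2.47 on the log2 scale (SE 0.19, edgeR quasi-likelihood adjusted p = 5.13e-08), which goes against a loss of transcript with each disrupted allele. The names CF, HET and WT below are those of the labels. Libraries held 32901281 to 52952273 estimated counts, of which the 34 genes took 0.552 to 0.749%. On a plot of the largest distances between libraries, the pigs numbered 1 to 6 and 12 to 18 stood apart from those numbered 7 to 11 and 19 to 23. They did so on the second axis, which held 10.9% of the variance. The first axis, with 15.9%, divided the libraries within both sets and within each label. The labels name no batch, and values within these sets are given where they bear on a result. Of 10 genes of dividing cells, all 10 had lower mean levels in CF, 7 of them at an unadjusted p under 0.05, beside 13.5% of all genes tested, and 0 after adjustment, beside 0.341%. Their summed level was 305 to 418 CPM in CF and 301 to 600 in non-CF pigs. Of 10 proximal tubule markers 8 were higher, 2 of them at such a p. Of 7 genes typical of distal tubule and loop of Henle 6 were lower, 3 of them at such a p, again with 0 called. Lower too were 7 of 8 immune, 7 of 10 erythroid and 4 of 5 neuron genes, with 1, 2 and 1 at such a p. The lists for collecting duct, podocyte, nephron progenitor, endothelium and stroma had more genes higher than lower. The part of these cell types in the results below was not tested.

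Levels between genes were compared as TPM, which divide counts by transcript length and bring each library to the same sum. HNRNPA1, an abundant protein that represses exons and shuttles between nucleus and cytoplasm, had the highest median over the 23 libraries, 269 TPM (range 226 to 388). HNRNPH1, which binds runs of guanine, followed at 224 (176 to 346), and HNRNPK, a binder of runs of cytosine, at 209 (163 to 266). These ranges overlapped, so the order of the leading genes is not fixed beyond the spread between pigs. SRSF6 was the highest SR protein gene at 139 TPM and PTBP1 the highest PTBP gene at 135, next to HNRNPF at the same median. PTBP3 was number 20 of 34 at 55.1 TPM (39.0 to 78.8). At the low end were HNRNPLL at 16.8, PTBP2 at 14.4 (10.3 to 19.6) and SRSF12, an SR protein gene, at 8.02 (lowest 5.06). The range of PTBP2 lay wholly below those of PTBP1 and PTBP3. A single RNA of the signal recognition particle took 421321 to 532330 TPM per library, so TPM values of all other genes move with it, and groups were compared on CPM instead.

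**Figure D1:**
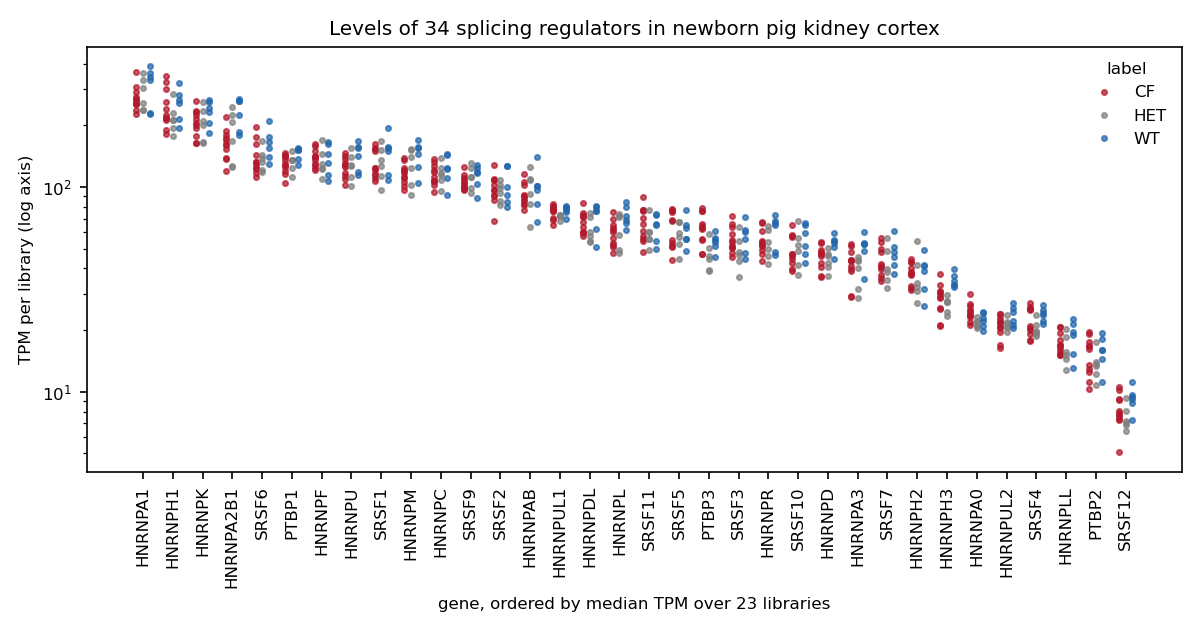
TPM (log axis) of each of the 34 genes in each of 23 libraries, with genes ordered by their median and points coloured by label. HNRNPA1 is highest (median 269 TPM) and SRSF12 lowest (8.02 TPM), and the 3 labels overlap for most genes.

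Of the 34 genes PTBP3 had the largest difference between CF and non-CF pigs. PTBP3 (chr1:252986716-253093059 of Sscrofa11.1, minus strand) measured 152 to 271 CPM in CF pigs, with a median of 188. It measured 114 to 155 CPM in HET pigs (median 134) and 124 to 163 in WT pigs (median 155). In 10 of 11 CF libraries PTBP3 was above the highest non-CF library, the exception being CF pig 2, and all 11 were above the non-CF median of 146, which held for 1.51% of all genes tested and for no other member. The mean was 200 ± 33.9 CPM in CF (SD, n = 11) and 143 ± 16.2 in non-CF pigs (SD, n = 12), a log2 difference of 0.49 (SE 0.083). Against WT alone the difference was 0.41 (SE 0.10) and against HET alone 0.57 (SE 0.10). The HET pigs, with 1 disrupted allele, did not lie between the other labels: HET was below WT by a log2 difference of -0.16 (SE 0.11), which did not pass edgeR's quasi-likelihood test (adjusted p = 0.75).

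Within the sets of pigs the PTBP3 values, which include those that chose the genes, are a description as well. In pigs 1 to 6 and 12 to 18, CF libraries spanned 152 to 235 CPM and non-CF libraries 114 to 163. In pigs 7 to 11 and 19 to 23 the spans were 171 to 271 and 125 to 158. In these pigs 4.56% of all genes had CF and non-CF libraries without overlap. No stretch of 31 bases in the PTBP3 transcripts occurs in another gene of the annotation, so its reads are not shared with its relatives.

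PTBP1 (chr2:77551562-77563153, minus strand), the most abundant of the 3, measured 267 to 389 CPM in CF (median 305), 295 to 359 in HET (329) and 319 to 337 in WT (330). The CF values were spread more widely, with 5 below every non-CF library and 2 above every one of them, around a mean difference of -0.06 on the log2 scale (95% interval -0.19 to 0.07, edgeR adjusted p = 0.73). PTBP2 (chr4:120961211-121041876, minus strand) measured 35.6 to 50.9 CPM in CF (median 44.8), 35.1 to 46.8 in HET (40.6) and 33.97 to 51.4 in WT (42.2). Its groups overlapped over almost their whole range, with a log2 difference of 0.06 (95% interval -0.09 to 0.21, edgeR adjusted p = 0.80).

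**Figure D2:**
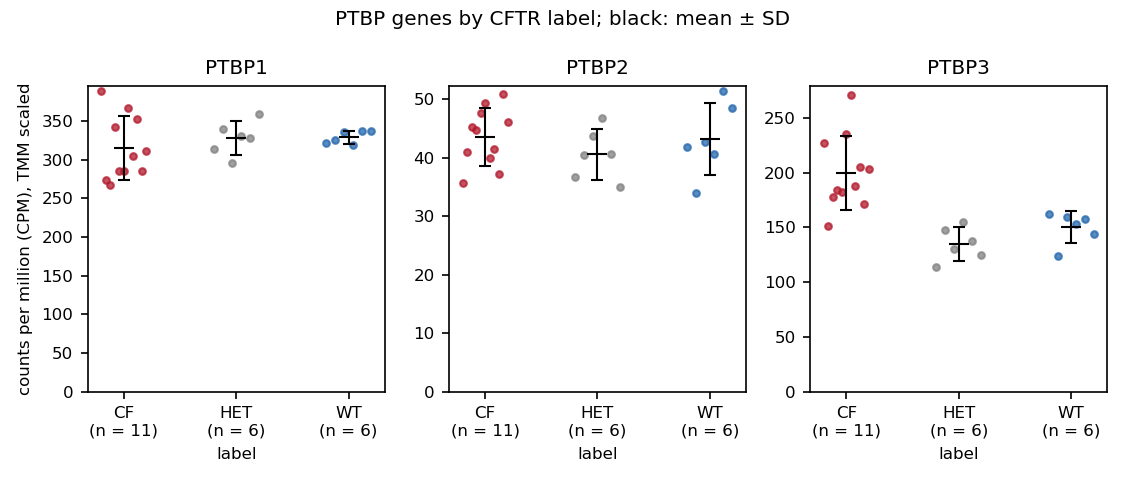
CPM of PTBP1, PTBP2 and PTBP3 in each library by label, with each point 1 pig and black bars the mean and SD (n = 11, 6 and 6). The PTBP3 points of CF pigs lie at 152 to 271 CPM, 10 of them above all HET and WT points, while PTBP1 and PTBP2 overlap between labels.

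Apart from PTBP3, 0 of 33 genes were called between CF and non-CF pigs by the edgeR quasi-likelihood test (Benjamini-Hochberg adjusted over 21434 genes), in which 0.341% of all genes were called. At an unadjusted p under 0.05 there were 4 of the 33, where 13.5% of all genes tested had such a p. DESeq2, which called 2.25% of all genes, also called 0 of the 33, as did the exact Mann-Whitney U test, which called 0.219%. By that rank test 4 of the 33 had an unadjusted p under 0.05, beside 11.5% of all genes. Of the 33 genes 15 were higher and 18 lower in CF, with a median log2 difference of -0.02, and the median over all genes tested was -0.0002. The 95% intervals of all 33 lay within 0.5 of 0 on the log2 scale, and those of 27 within 0.25. Changes of the size of the PTBP3 difference would therefore lie outside the interval for most of these genes, and smaller ones may not.

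The balance of directions among the 33 genes was not the same in the sets of pigs. In pigs 1 to 6 and 12 to 18 alone, 22 were higher and 11 lower in CF, with a median log2 difference of 0.07. In that set 0 of the 33 were called by edgeR (0.0% of all genes) and 3 had an unadjusted p under 0.05, beside 8.95% of all genes. In pigs 7 to 11 and 19 to 23 alone, 9 were higher and 24 lower, with a median of -0.07. There 1 of the 33, HNRNPA2B1, was called, beside 2.13% of all genes, and 8 had an unadjusted p under 0.05, all lower in CF, beside 17.1% of all genes. CF and non-CF libraries did not overlap for 4 of the 33 in that set, HNRNPA1, HNRNPA2B1, HNRNPU and SRSF1, beside 4.56% of all genes, and for 0 of the 33 in the other, beside 0.611%. The difference in the CF effect between the sets was called for 0 of the 34 (edgeR interaction term, beside 0.0187% of all genes), and 7 had an unadjusted p under 0.05, beside 10.1% of all genes. In all 7 the difference was more negative in pigs 7 to 11 and 19 to 23. The directions over all genes in these comparisons are not given, so the balance is not read as particular to these genes.

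**Figure D3:**
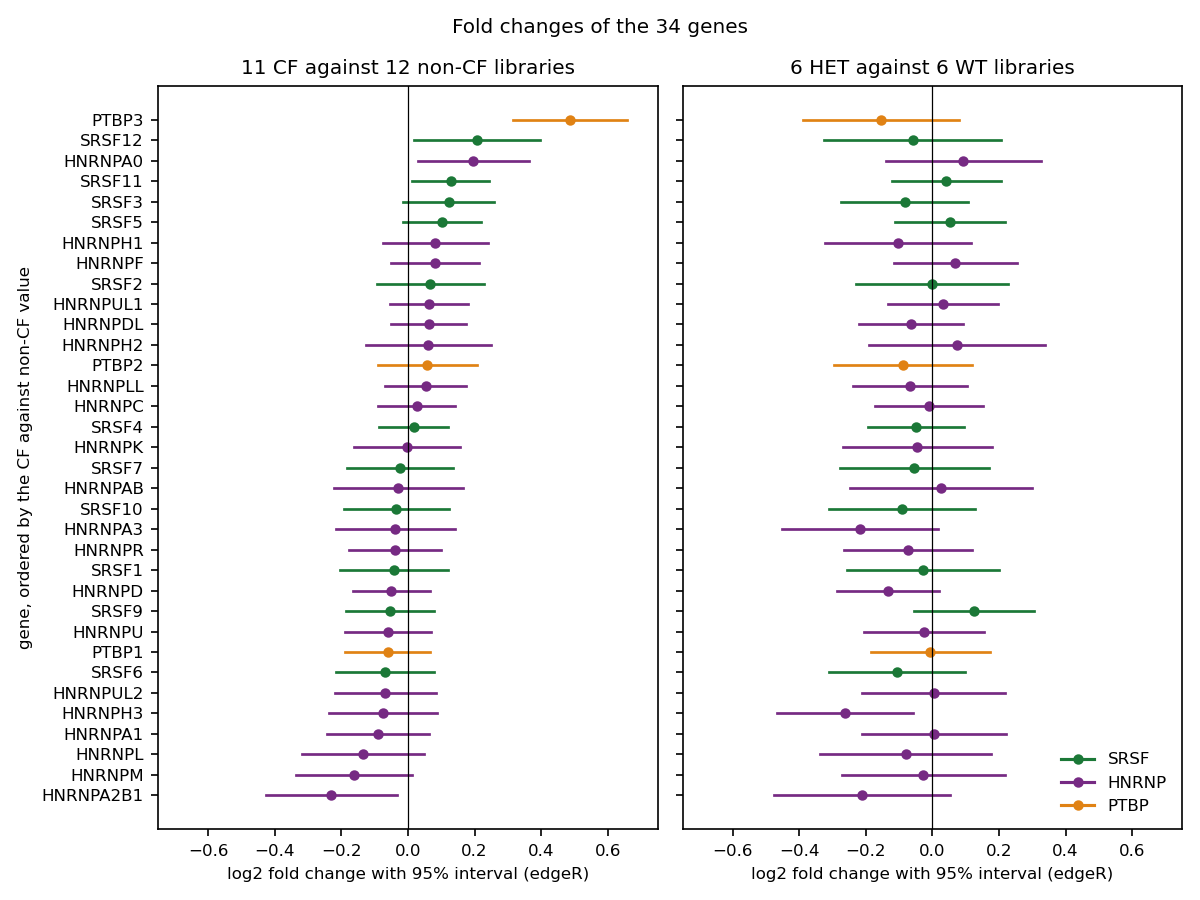
Log2 fold changes of the 34 genes with 95% intervals from edgeR, for CF against non-CF pigs (left) and HET against WT pigs (right), coloured by family. PTBP3 stands at 0.49 on the left and at -0.16 on the right; all other genes on the left lie between -0.23 and 0.21.

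Among the SR protein genes, 6 were higher and 5 lower in CF. SRSF11, which takes part in choosing alternative splice sites, measured 145 to 196 CPM in CF (median 166), 139 to 179 in HET (155) and 133 to 170 in WT (148). In 10 of 11 CF libraries it was above the non-CF median, with a log2 difference of 0.13 (SE 0.056), which was not called (edgeR adjusted p = 0.31). That difference was 0.21 in pigs 1 to 6 and 12 to 18 alone and 0.03 in pigs 7 to 11 and 19 to 23 alone (edgeR adjusted p = 0.46 and 0.90). SRSF12 measured 9.17 to 17.8 CPM in CF (median 13.9), 9.92 to 13.9 in HET (11.7) and 10.9 to 15.4 in WT (11.6). In 9 of 11 CF libraries it was above the non-CF median, with a log2 difference of 0.21 (SE 0.092, edgeR adjusted p = 0.31). SRSF3, the smallest SR protein, had a difference of 0.12 (SE 0.066, edgeR adjusted p = 0.43), and against HET alone of 0.16 (SE 0.081, adjusted p = 0.52). The widely studied SRSF1 and SRSF2 differed by -0.04 and 0.07 over all pigs (edgeR adjusted p = 0.88 and 0.77). SRSF1 had opposite directions in the sets, with a log2 difference of 0.07 in pigs 1 to 6 and 12 to 18 and -0.19 in pigs 7 to 11 and 19 to 23 (edgeR adjusted p = 0.85 and 0.21). Its libraries in the latter pigs spanned 254 to 272 CPM in CF and 279 to 347 in non-CF, without overlap. The test of that inequality gave an adjusted p of 0.41 (edgeR interaction term, unadjusted p = 0.027). The log2 differences of SRSF12 and SRSF3 were above 0 in both sets, at 0.27 and 0.13 for SRSF12 and at 0.16 and 0.07 for SRSF3.

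Of the HNRNP genes 8 were higher and 12 lower in CF. HNRNPA0, a relative of HNRNPA1 encoded by a single exon, that binds AU-rich RNA, measured 58.3 to 95.5 CPM in CF (median 65.9), 53.9 to 70.2 in HET (66.4) and 55.2 to 70.1 in WT (60.1). In 5 of 11 CF libraries it was above every non-CF library while the medians of CF and HET were close, and the log2 difference of 0.20 (SE 0.081) was not called (edgeR adjusted p = 0.27). HNRNPM, a regulator of alternative exons, measured 203 to 296 CPM in CF (median 263), 212 to 341 in HET (290) and 224 to 334 in WT (289). Its log2 difference was -0.16 (SE 0.085, edgeR adjusted p = 0.41). In pigs 1 to 6 and 12 to 18 alone that difference was -0.06 and in pigs 7 to 11 and 19 to 23 alone -0.30 (edgeR adjusted p = 0.92 and 0.10), with an adjusted p of 0.60 for the inequality of the sets (edgeR interaction term).

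HNRNPA2B1 (chr18:46205164-46215861, plus strand), which binds RNA in splicing and in transport, had the most negative log2 difference of the set between CF and non-CF pigs. It measured 273 to 413 CPM in CF (median 336), 269 to 451 in HET (397) and 377 to 481 in WT (439). All 11 CF libraries were below the non-CF median of 429, although 1 non-CF library was lower than any CF library. The log2 difference was -0.23 (SE 0.096, edgeR adjusted p = 0.27), and against WT alone -0.33 (SE 0.11, adjusted p = 0.16). Its values within the sets of pigs were unlike. In pigs 7 to 11 and 19 to 23 it was 315 to 349 CPM in CF and 414 to 481 in non-CF pigs, without overlap, and those pigs alone gave a log2 difference of -0.44 that was called (edgeR adjusted p = 0.0074, beside 2.13% of all genes called in these pigs). In pigs 1 to 6 and 12 to 18 the values were 273 to 413 and 269 to 476, with a log2 difference of -0.07 (adjusted p = 0.93). The test of that inequality gave an adjusted p of 0.46 (edgeR interaction term, log2 difference -0.39, unadjusted p = 0.040). Of the stretches of 31 bases in the HNRNPA2B1 transcripts, 56.9% also occur in models of the neighbouring gene NFE2L3, so the split of reads between them is uncertain.

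Between HET and WT pigs, 0 of 34 genes were called by edgeR's quasi-likelihood test, beside 0.00467% of all genes, and 1 of 34 had an unadjusted p under 0.05, beside 8.0% of all genes. DESeq2 also called 0 of the 34, beside 0.149% of all genes. In 0 of the 34 were the HET and WT libraries free of overlap, as they were in 0.695% of all genes. The single gene was HNRNPH3, a relative of HNRNPH1, at 33.9 to 40.8 CPM in HET (median 36.9) and 40.7 to 48.4 in WT (median 44.1). Only the highest HET library reached the range of the WT libraries, and the log2 difference of -0.26 (SE 0.099) did not pass (edgeR adjusted p = 0.55). In CF pigs HNRNPH3 spanned 30.2 to 46.5 CPM with a median of 38.7, and CF against WT gave -0.20 (SE 0.086, edgeR adjusted p = 0.29). Of its stretches of 31 bases, 48.7% are shared, most with the overlapping gene RUFY2. The next in order, HNRNPA3 and HNRNPD, had log2 differences of -0.22 (SE 0.11) and -0.13 (SE 0.075) between HET and WT, with edgeR adjusted p = 0.65 and 0.67. Of the 34 genes 24 were lower in HET than in WT, with a median of -0.05. In CF against WT and in CF against HET, 0 of the 33 genes other than PTBP3 were called either (edgeR, beside 0.336 and 0.0% of all genes), with 4 and 1 at an unadjusted p under 0.05, beside 14 and 9.83% of all genes. DESeq2 called 0 of the 33 in both, beside 2.67 and 0.261% of all genes. These comparisons share their CF libraries.

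PTBP3 has 6 transcript models, all coding, which differ at the start of the protein. In 4 of them (variants X1 to X4) an exon of 34 bases is included and the start codon lies in an upstream exon. Variant X5 lacks this exon and starts further downstream. The exon is shown because it separates the longer from the shorter protein start, and it lies at chr1:253089875-253089908 on the minus strand (Sscrofa11.1, read from the RefSeq genome):
PTBP3 34-base exon: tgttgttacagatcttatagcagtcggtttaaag
A later exon, chr1:253056328-253056412, also on the minus strand, occurs in a longer and a shorter form. The capitals mark the 9 bases at its end that only the longer form keeps:
PTBP3 exon with alternative end: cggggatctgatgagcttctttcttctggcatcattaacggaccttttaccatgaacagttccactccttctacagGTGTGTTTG
The remaining model is a curated mRNA that covers little besides the coding part of X5.

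The levels of the single PTBP3 transcripts are given as a description, since no ratio between them was called by limma, as given below. Variant X5, with the most counts, measured 62.6 to 134 CPM in CF (median 98.4), 52.1 to 69.3 in HET (60.04) and 51.6 to 80.3 in WT (72.1). In 10 of 11 CF libraries X5 was above every non-CF library. The curated mRNA measured 40.7 to 74.7 CPM in CF (median 49.97), 38.8 to 51.6 in HET (46.4) and 43.1 to 53.1 in WT (46.0), with 4 CF libraries above every non-CF library. In pigs 1 to 6 and 12 to 18 the median of this mRNA was 47.4 CPM in CF and 48.4 in non-CF pigs, and in pigs 7 to 11 and 19 to 23 it was 68.6 and 44.4. The medians of X5 were higher in CF in both sets, at 100.4 against 69.3 CPM and at 89.8 against 66.2. Variant X3 had a mean of 26.6 ± 9.54 CPM in CF (SD, n = 11), 15.4 ± 3.59 in HET and 18.4 ± 5.65 in WT (SD, n = 6 each), and X1 of 18.9 ± 3.49, 11.9 ± 2.68 and 14.4 ± 6.14. Variant X2 had 0 counts in 22 libraries and X4 in 10, so neither could be followed.

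Among the variants X1 to X5 of PTBP3, the share with the 34-base exon was taken as the TPM of X1 to X4 over that of X1 to X5. It was 32.1 ± 3.75% in CF (SD, n = 11) and 31.7 ± 2.399% in non-CF pigs (SD, n = 12). This measure was chosen after the transcripts had been seen, and the permutation test of the means, two-sided, gave p = 0.79. HET pigs had 31.4 ± 3.15% and WT pigs 32.0 ± 1.58% (SD, n = 6 each, exact permutation test, two-sided, p = 0.66). The level of the gene differed while this share among X1 to X5 did not differ beyond the spread between pigs. The curated mRNA begins past the 34-base exon and was left out of both sides of the share. With 1572 bases against 6769 for X5, it has more TPM for the same counts. The share is therefore not one of the whole gene. Among the ratios of each PTBP3 transcript to the rest of the gene, that of the curated mRNA was lower in CF by a log2 difference of -0.35 (SE 0.12), and that of X5 higher by 0.19 (SE 0.097). Neither was called by limma over 43331 transcripts (adjusted p = 0.55 and 0.71).

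**Figure D4:**
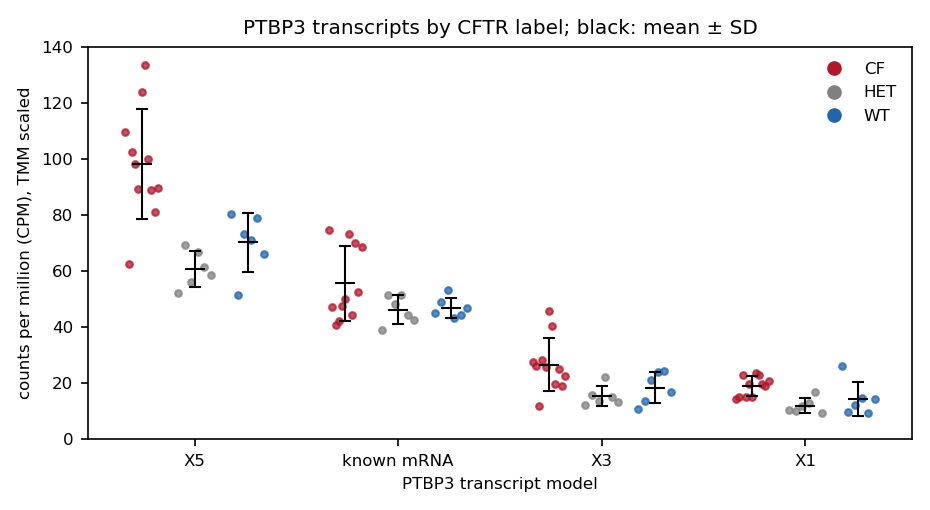
CPM of the 4 PTBP3 transcript models with the most counts in each library by label, with each point 1 pig and black bars the mean and SD (n = 11 CF, 6 HET, 6 WT). X5 is higher in 10 of 11 CF libraries than in any HET or WT library, and X3 and X1 have higher means in CF.

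Transcript usage of the other members was uneven in quality, since 42 of the 249 models had 0 counts in all libraries and 65 in some of them. The edgeR usage test (diffSpliceDGE), chosen as the main test, called 1 member transcript in CF against non-CF (0.0623% of all transcripts tested) and 1 in HET against WT (0.108%). Both calls were variant X4 of HNRNPC, a core component of hnRNP particles, which had 0 counts in 11 of 23 libraries. It had 0 to 424 counts in CF (median 81), 0 in all 6 HET and 0 to 29 in WT libraries. On simulated data 83.8% of the calls of that test were false, so nothing is read from them. The ratio of each transcript to the rest of its gene, tested by limma in its place, gave 0 calls in either comparison, with 7.23 and 4.92% of all transcripts at an unadjusted p under 0.05. Such a p was found for 29 of 175 member transcripts in CF against non-CF (16.6%, PTBP3 aside), from 14 genes, with the most, 5, from HNRNPK. In HET against WT it was found for 8 of 180 (4.44%). Transcripts of a gene share reads and the ratio sets each against the others, so these counts are not of independent values.

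The same edgeR tool also tests usage once per gene, which was possible for 27 members. In CF against non-CF it called 2 of the 27, HNRNPC (adjusted p = 0.014) and PTBP1 (adjusted p = 0.032), beside 0.293% of the 10241 genes tested, and 7 had an unadjusted p under 0.05, beside 5.32%. In HET against WT it called 0 of the 27, beside 0.439% of all genes, and 2 had an unadjusted p under 0.05, beside 5.0%. These gene level calls were not scored on simulated data. In HNRNPC variant X4 was the single transcript with an unadjusted p under 0.05 in the edgeR usage test, so the gene's call rests on the model that is mostly at 0 and nothing is read from it either.

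The smallest p values of that ratio test belonged to PTBP1 and HNRNPM. Variant X1 of PTBP1, a minor form with an alternative first exon, measured 10.8 to 25.1 CPM in CF (median 16.96), 19.6 to 32.0 in HET (27.2) and 18.6 to 36.8 in WT (27.2). In 9 of 11 CF libraries it was below every non-CF library, and the log2 difference of its ratio was -0.61 (SE 0.12, limma adjusted p = 0.32). It made up 4.02 ± 0.733% of PTBP1 TPM in CF (SD, n = 11) and 5.95 ± 1.12% in non-CF pigs (SD, n = 12). The edgeR usage test per gene called PTBP1, as given above, whereas the limma ratio did not call this transcript.

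Variant X3 of HNRNPM measured 11.3 to 67.4 CPM in CF (median 32.3), 62.4 to 88.3 in HET (73.2) and 62.8 to 117 in WT (71.9). In 9 of 11 CF libraries it was below every non-CF library, and the log2 difference of its ratio was -1.25 (SE 0.28, limma adjusted p = 0.35). It was lower in CF in pigs 1 to 6 and 12 to 18, at 11.3 to 59.0 CPM against 62.4 to 117, and in pigs 7 to 11 and 19 to 23, at 21.97 to 67.4 against 63.9 to 88.3. Variant X1, the model with the most counts, includes a 54-base exon that X3 skips. The exon lies at chr2:70819575-70819628 on the minus strand and is shown because it is the coding difference between these models:
HNRNPM 54-base exon: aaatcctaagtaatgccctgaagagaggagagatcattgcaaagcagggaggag
Taken over all 20 HNRNPM models, the 12 with this exon made up 66.1 ± 3.38% of TPM in CF (SD, n = 11) and 62.4 ± 3.21% in non-CF pigs (SD, n = 12). The 10 models, X1 and X3 among them, with an exon of 192 bases (chr2:70836041-70836232) that the other 10 models split by an intron made up 58.3 ± 3.51% in CF (SD, n = 11) and 62.6 ± 2.53% in non-CF pigs (SD, n = 12). CF minus non-CF was 4.55 and 2.66 percentage points for the first share and -5.40 and -2.73 for the second, in pigs 1 to 6 and 12 to 18 and in pigs 7 to 11 and 19 to 23. Both shares were picked after X3 had been seen, so they carry no test, and the ranges of both overlapped between CF and non-CF pigs. Models of a gene share most of their sequence, and the deposited values hold no estimate of the error of the split between them.

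Non-coding models make up a large part of several of these genes in the annotation. There are 33 such models in 10 genes, and in HNRNPU all 4 models are of this kind. The annotated start codon of the gene is present in 29 of the 33. In all 29 the first in-frame stop lies more than 50 bases ahead of the last exon junction, the layout known from nonsense-mediated decay, against 2 of 216 coding models. RefSeq uses this layout to class models as non-coding, so the contrast describes the annotation. In SRSF3, SRSF5 and SRSF7 the stop lies in sequence that no coding model includes, and these stretches, 1 for each different stop, are shown with the stop in capitals, 5′ to 3′ on the plus strand of Sscrofa11.1 from the RefSeq genome.
SRSF3, chr7:32293963-32294056, the start of an added exon: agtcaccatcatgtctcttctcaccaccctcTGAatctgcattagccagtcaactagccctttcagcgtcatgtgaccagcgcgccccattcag
SRSF5, chr7:93394984-93395070, an exon extended into the intron before it: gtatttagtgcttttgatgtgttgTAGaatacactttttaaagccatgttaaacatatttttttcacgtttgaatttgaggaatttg
SRSF7, 1 of its 3 non-coding models, chr3:101605375-101605497, an exon extended into the intron after it: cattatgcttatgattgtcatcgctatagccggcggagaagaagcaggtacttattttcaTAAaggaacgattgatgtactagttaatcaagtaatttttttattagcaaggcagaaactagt
SRSF7, the other 2 models, chr3:101605604-101605691, the start of an exon within that intron: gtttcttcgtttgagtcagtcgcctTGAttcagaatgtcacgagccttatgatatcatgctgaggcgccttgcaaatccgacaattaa

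In the 9 genes with both kinds of model, the non-coding models took from 6.22% (HNRNPA1) to 92.5% (SRSF7) of the TPM of their gene, as medians over the 23 libraries. SRSF7, which exports as well as splices mRNA, had 91.6 to 93.6% in CF, 90.9 to 92.7% in HET and 90.7 to 93.4% in WT pigs. HNRNPA2B1 had a median of 70.6%, SRSF1 69.5%, SRSF2 62.0%, SRSF3 46.0% and SRSF5 32.4%. Shares of TPM depend on the length of the models. In SRSF7 the coding models have 5275 to 5344 bases and the non-coding ones 1388 to 1810, which makes its non-coding share larger than in counts. In SRSF1 the mean share was 67.3% of TPM but 58.0% of counts in CF, and 71.7 but 62.9% in non-CF pigs. The library was made from total RNA, which also holds unspliced and nuclear transcripts, and the part of these in the shares was not tested.

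The ratio of non-coding to coding transcripts was called by limma in 0 of the 9 members that have both kinds, and in 0 of 1447 genes (0.0%). At an unadjusted p under 0.05 there were 4 of the 9, beside 8.29% of all 1447. In HNRNPA1 the non-coding share was 6.08 to 9.64% in CF (median 7.04), 4.16 to 7.74% in HET (5.44) and 4.97 to 6.22% in WT (5.52). All 11 CF libraries were above the non-CF median, and the ratio differed by 0.36 on the log2 scale (SE 0.11, limma adjusted p = 0.29). In SRSF1 the share was 63.0 to 72.7% in CF (median 65.9), 69.5 to 77.3% in HET (73.6) and 65.7 to 77.7% in WT (69.4), a log2 difference of the ratio of -0.30 (SE 0.11, limma adjusted p = 0.38). In pigs 1 to 6 and 12 to 18 the SRSF1 share was 63.0 to 67.8% in CF and 68.1 to 77.7% in non-CF, whereas in pigs 7 to 11 and 19 to 23 the medians were 71.9 and 70.3%. The medians of the HNRNPA1 share in those sets were 7.27 against 5.51% and 6.93 against 5.42%. The differences were 0.30 (SE 0.13) for SRSF3 and 0.18 (SE 0.078) for SRSF7, with limma adjusted p = 0.53 and 0.50. The direction was thus upward for HNRNPA1, SRSF3 and SRSF7 and downward for SRSF1, and none passed the adjustment. In SRSF2 the ratio differed by -0.24 (SE 0.13, unadjusted p = 0.080, limma adjusted p = 0.67) and in HNRNPDL by -0.15 (SE 0.18, limma adjusted p = 0.85). HNRNPA2B1, HNRNPH1 and SRSF5 differed by 0.06, -0.03 and 0.01.

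**Figure D5:**
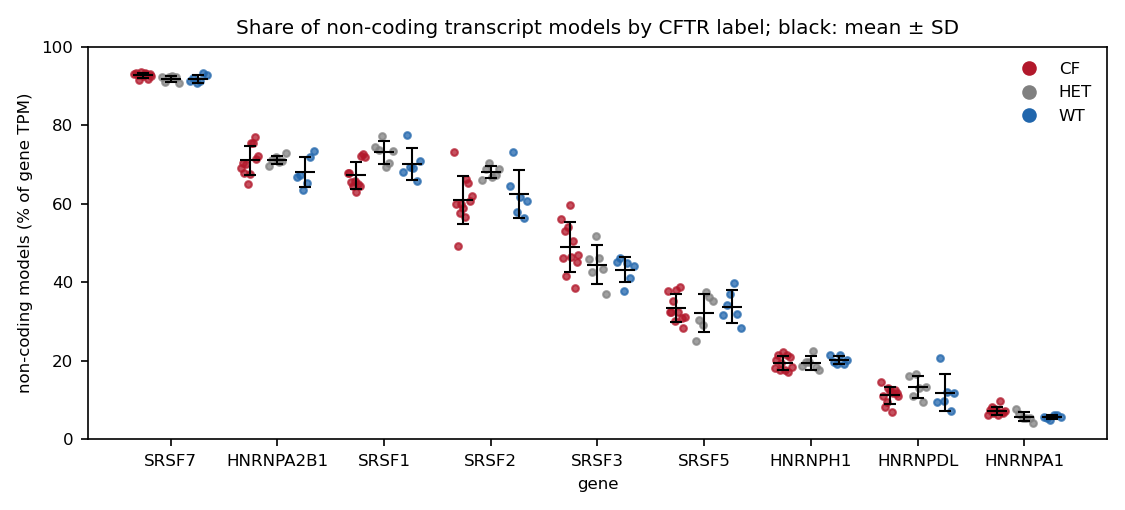
Share of TPM in non-coding transcript models, in percent of the gene, for 9 genes in each library by label; each point is 1 pig and black bars are the mean and SD (n = 11 CF, 6 HET, 6 WT). SRSF7 lies above 90% and HNRNPA1 below 10% in every library, and the labels overlap in each gene.

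Genes that act with the 34 were followed as 6 lists, of which 94 of 98 genes could be tested, and edgeR's quasi-likelihood test called 0 of the 94 between CF and non-CF pigs, beside 0.341% of all genes. An unadjusted p under 0.05 was found for 14 that were higher and 1 that was lower in CF, or 15 of 94, beside 13.5% of all genes. Among SR-like proteins 10 of 14 were higher, with the smallest p for SRRM1, a coactivator that bridges SR proteins (log2 difference 0.15, SE 0.050, adjusted p = 0.16). Among the kinases that phosphorylate SR proteins and their importers 6 of 10 were higher, led by CLK4 at 0.26 (SE 0.082, edgeR adjusted p = 0.14). Of 11 hnRNP proteins under other symbols 4 were higher, with the smallest p for RALY. Of 30 other regulators of alternative splicing 17 were higher, and QKI, which binds RNA through a KH domain, was nearest to a call at 0.23 (SE 0.055, edgeR adjusted p = 0.054). QKI alone of the 94 was called by DESeq2 (adjusted p = 0.0047), beside 2.25% of all genes. Of 15 core factors at splice sites 7 were higher, with the smallest p for SNRPA, a protein of the U1 particle, at -0.31 (SE 0.092, edgeR adjusted p = 0.11). Of 14 genes of nonsense-mediated decay 6 were higher, with UPF3A at 0.33 (SE 0.12, adjusted p = 0.21). The medians of the 6 lists lay between -0.01 and 0.03.

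Sequence shared between genes limits some members more than others. Stretches of 31 bases, the length kallisto uses by default, were shared with another gene for 65.3% of HNRNPK (a pseudogene of it), 64.2% of SRSF3 (mostly one other locus) and 42.8% of SRSF2 (METTL23). For HNRNPA3, HNRNPAB and SRSF1 the shares were 22.1, 21.3 and 10.7%, and for HNRNPA1 and PTBP1 8.75 and 6.78%. Levels of these genes depend on how the estimate divided the shared reads.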

How the data were processed

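Kidney cortex RNA of 23 newborn pigs (11 CF, 6 HET, 6 WT) was analysed. Per the methods, piglets came from matings of CFTR+/- pigs, and libraries were prepared from total RNA with a stranded kit and ribosomal RNA removal. The authors pseudoaligned the reads with kallisto to transcripts of Sscrofa11.1. The estimated counts the authors deposited are not normalized and need not be whole. The TPM the authors deposited are scaled by effective length and library. Estimated counts were summed per gene symbol and rounded. P-values measure the spread between single pigs, with litter left out because it is not given.

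Gene comparisons used edgeR 4.0.16 (quasi-likelihood, TMM, filterByExpr, Benjamini-Hochberg) in R 4.3.3, with CF against non-CF fitted on 2 groups and the other contrasts on 3 labels. Transcript usage used diffSpliceDGE and limma 3.58.1, and the ratio of non-coding to coding transcripts limma with a pseudocount of 0.5. Alternatives included DESeq2 1.42.0, other scalings and filters, single pig sets and each library left out. The members, lists and tests were chosen with earlier results of these data known. On simulated data, edgeR found 60.7% of 107 genes changed by 0.5 (log2) and 95.7% of 93 changed by 1, with 6.10% of calls false. The diffSpliceDGE step found 4.0% of 200 changed transcripts, with 83.8% of calls false, the limma transcript ratio 40.0% with 6.98% false, and the coding ratio 70.0% of 100 genes with 4.11% false. Full statistics are given for the PTBP genes, called members and those with the smallest p per comparison. Coordinates and sequences are of Sscrofa11.1 (RefSeq). No count of 0 was met at gene level; 3 counts correspond to 0.0567 to 0.0912 CPM, for counting error only.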

Additional observations from a re-analysis of the deposited data

Results flagged for a closer look

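In the 86 groups of 6 libraries checked (34 gene levels and 9 non-coding shares, in HET and in WT), 2 held a library far from the others, where chance alone gives about 1 in 20. HNRNPA0 measured 70.1 CPM in WT pig 12 against 55.2 to 60.3 in the other WT pigs, a gap of 0.659 of the whole range. The non-coding share of HNRNPDL, a relative of HNRNPD, was 20.6% in WT pig 16 against 7.12 to 12.1% in the others, a gap of 0.628 of the range. No member passed the test of a different CF effect between the sets of pigs (edgeR interaction term, lowest adjusted p 0.35, beside 0.0187% of all genes called). An unadjusted p under 0.05 was found for 7 of the 34, beside 10.1% of all genes, and in all 7 the CF difference was more negative in pigs 7 to 11 and 19 to 23.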

How the results depend on the processing

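Called members stayed at 0 of 33 (CF comparisons, PTBP3 aside) and 0 of 34 (HET against WT) under every alternative tried but 1: pigs 7 to 11 and 19 to 23 alone gave 1 call, HNRNPA2B1, beside 2.13% of all genes. Leaving out each library gave 0 to 0. Called list genes went from 0 to 1 of 94 with DESeq2, beside 2.25% of all genes, and to 1 with the pig set as a term. They ranged from 0 to 2 on leaving out a library (2, QKI and SNRPA, without CF pig 4, and 1, QKI, without CF pig 10 or HET pig 19). The share of all genes is not given for the set term or the left-out libraries, so nothing is read from those counts. Member transcripts called for usage in CF against non-CF numbered 1 by edgeR, 3 by limma diffSplice, 0 with the limma ratio (chosen after seeing the data) or with at least 10 counts in 12 libraries required, 2 with the set term and 1 to 2 without a library (2 without WT pig 23). In HET against WT the 1 became 0 in all 4 of those settings, with 1 to 2 without a library (2 without HET pig 13). Of all transcripts tested, edgeR called 0.0623% in CF against non-CF and 0.108% in HET against WT, and the limma ratio 0% in either. The shares for the other settings are not given here, so nothing is read from their counts. The cause of these changes was not tested. The ratio of non-coding to coding transcripts kept 0 calls throughout. Directions turned, with none called, for 9 of 33 members in pigs 1 to 6 and 12 to 18 alone (log2 differences up to 0.12 in size), among them HNRNPA1 (0.059) and HNRNPA3 (0.070), and for 6 of 33 in the other set alone (up to 0.10), among them PTBP2 (-0.037). Of the members named, HNRNPA3 (0.075), HNRNPD (0.018) and HNRNPH3 (0.062) turned against HET alone. The ratio of PTBP3 X1 ranged from -0.0085 to 0.11 as single libraries were left out, and the CF minus non-CF difference in the 34-base exon share from -0.45 (without CF pig 2) to 1.03 percentage points, being -0.034 without HET pig 14. No analysis paired by litter was possible because the labels do not give the litter. The paper describes CF and WT littermates for its blood measurements, so pigs of different labels may share a litter here. No test took this into account. Members held at least 424 counts in every library, whereas many of their transcripts had 0, which limits what the usage tests can show.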
